A study of Mus musculus with 6 samples.

Results

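The 7 genes described here encode the 2 plasminogen activators (Plau and Plat), the receptor that holds one of them at the cell surface (Plaur), 2 secreted serpins (Serpine2 and Serpinf1) and 2 serine proteases that act outside or at the surface of the cell (Htra1 and Fap). They were chosen by gene symbol, and all 7 were found among the 23337 gene rows of the count tables and passed the filter on low counts. RNA was sequenced from stromal fibroblasts cultured from the mammary gland of C57BL/KaLawRij mice aged 7 weeks. There were 3 libraries from Sharpin-cpdm animals (cpdm/cpdm, Sharpin deficient, called mutant below) and 3 from wild-type animals (wt/wt). Each library pooled the glands of 3 mice, and cells from the collagenase digest, enriched by centrifugation, were cultured at passage 0 in serum-containing medium until they were confluent. The cpdm allele is a spontaneous mutation of Sharpin, which encodes an integrin inhibitor that is also part of LUBAC, the complex that builds linear ubiquitin chains, and it is carried in every cell of the animal. The design asks which transcripts of stromal fibroblasts differ when SHARPIN is missing.

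The plasminogen activators are secreted serine proteases that cut plasminogen, a zymogen from blood plasma, into plasmin, which digests fibrin and other matrix proteins and can activate latent metalloproteinases. Urokinase (Plau) works mainly at the cell surface, bound to its GPI-anchored receptor (Plaur), while the tissue-type activator (Plat) works best on fibrin. Serpins trap their target protease in a covalent complex, and the complex is cleared by receptors of the LDL receptor family. In the mammary gland the system is known for its part in matrix turnover during ductal growth and involution.

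Sharpin itself stood at 10.5, 9.13 and 9.51 CPM (the counts of a gene scaled to a common total of gene counts) across mutant libraries 1 to 3 and at 24.5, 25.2 and 31.2 CPM across wild-type libraries 1 to 3. Libraries held between 13570649 and 15656196 gene counts. Genotypes were compared with edgeR's quasi-likelihood test over 13442 tested genes, with p-values adjusted by the Benjamini-Hochberg method and a threshold of 0.05. That test called 0 genes (0%) without further terms, with 307 (2.28%) at an unadjusted p under 0.05. DESeq2 without further terms called 10 genes, 0 of them among the 7. The replicate numbers 1 to 3 occur in both groups, and libraries of the same number deviated together. With the number as a block, the same test called 337 genes (2.51%), of which 53 were higher and 284 lower in Sharpin-cpdm (2.11% lower). With added offsets for GC content and gene length it called 142 higher and 280 lower. The median log2 fold change over all genes was 0.033 with the offsets and -0.00168 with the block alone. The main fit was the one without the block, and the block was an alternative whose pairing came from these data. A gene is said below to have risen or fallen where the test with the block called it.

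Fap fell in Sharpin-cpdm fibroblasts, by 21.6%, and it was the member that the test with the block called. Plau and Htra1 were lower in every Sharpin-cpdm library than in any wild-type library, by 24.0% and 24.6% in the fit with the block, without passing the adjusted threshold. Plat and Serpine2 were lower in each of the 3 same-numbered pairs by smaller amounts. Plaur and Serpinf1 went both ways between pairs. Without the block 0 of the 7 were called, with 3 at an unadjusted p under 0.05, and with it 1 was called, with 5 at an unadjusted p under 0.05, where 2326 of all tested genes (17.3%) were.

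Plasminogen activators came first in the order of the pathway. Plau, urokinase, lies on chromosome 14, 20836660 to 20843385, plus strand (mm10, GENCODE ENSMUSG00000021822.3). It stood at 134, 124 and 133 CPM across mutant libraries 1 to 3, against 146, 163 and 205 CPM across wild-type libraries 1 to 3. The groups did not overlap, the Sharpin-cpdm libraries were close together, and the spread lay in the wild-type libraries. Means were 130 ± 5.61 CPM for the mutant and 172 ± 30.4 CPM for wild type (SD, n = 3 per group). On the log2 scale the fold change came to -0.41 ± 0.14 (SE; unblocked edgeR fit, adjusted p 1), and with the block it came to -0.40 ± 0.10 at an adjusted p of 0.109. The differences within pairs 1 to 3 were -0.13, -0.38 and -0.67 on the log2 scale, so that pair 3 held the largest of them. Without pair 1 the log2 fold change was -0.53 (blocked edgeR fit, adjusted p 0.00672), and without pair 3 it was -0.26 with an adjusted p of 0.318. DESeq2 with the block called Plau at an adjusted p of 0.0384.

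Plat, the tissue-type activator, lies on chromosome 8, 22757727 to 22782844, plus strand (ENSMUSG00000031538.6). It stood at 239, 208 and 225 CPM across mutant libraries 1 to 3, against 269, 252 and 231 CPM across wild-type libraries 1 to 3. The groups overlapped, since Sharpin-cpdm library 1 was above wild-type library 3. Within pairs the differences were -0.18, -0.26 and -0.08 on the log2 scale. The fit with the block gave -0.17 ± 0.05 (SE, n = 3 pairs; edgeR, adjusted p 0.151). The ratio of Plau counts to Plat counts was 0.561, 0.596 and 0.592 across mutant libraries 1 to 3 and 0.543, 0.649 and 0.890 across wild-type libraries 1 to 3. The ratio therefore overlapped between genotypes, and wild-type library 3 had the highest.

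Plaur, the urokinase receptor, lies on chromosome 7, 24462484 to 24475968, plus strand (ENSMUSG00000046223.10). It stood at 58.2, 99.2 and 47.9 CPM across mutant libraries 1 to 3, against 52.9, 110 and 50.3 CPM across wild-type libraries 1 to 3. Both libraries numbered 2 were high and the other 4 were low, whatever the genotype. The log2 fold change with the block was -0.04 ± 0.07 (SE, n = 3 pairs; edgeR, adjusted p 0.789). The replicate number took 98.5% of the sum of squares of log2 CPM of Plaur over the 6 libraries and the genotype 0.139%. Over all tested genes the medians of these shares were 72.9% and 8.26%. The replicate number has more levels than the genotype and can take a larger share for that alone.

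**Figure D1:**
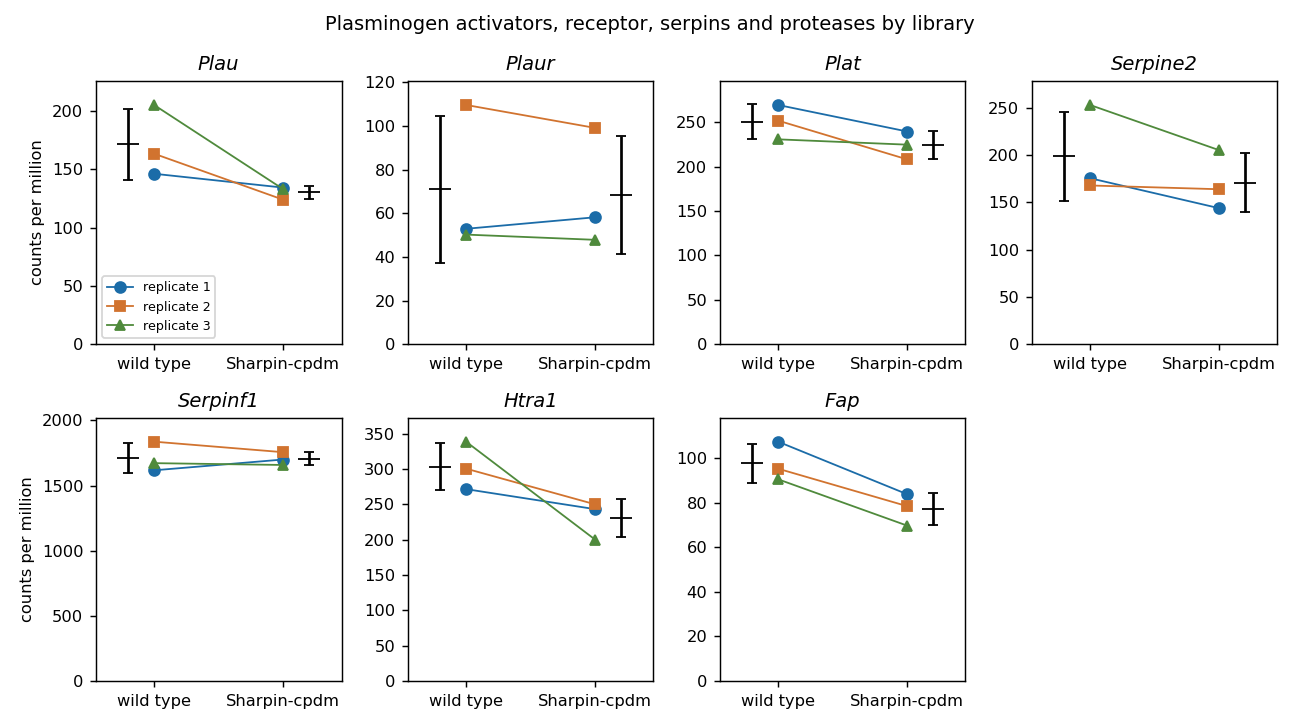
CPM of the 7 genes in each library, with lines joining libraries of the same replicate number and black bars giving the mean ± SD of each genotype (n = 3). Fap, Plau and Htra1 have Sharpin-cpdm values that are all below the wild-type ones, and Plaur is high in both libraries numbered 2.

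Upstream sequence was available for 4 of the 7 genes (Plaur, Htra1, Serpine2 and Serpinf1) in the RefSeq promoter table of GRCm38.p6, the assembly of the mm10 build. The 250 bases before the RefSeq start were searched, and those that lie before the GENCODE gene model are shown for Plaur (all 250), the member that varied most between replicate numbers, and for Htra1 (158), one of the members that were lower in every Sharpin-cpdm library. Capitals mark matches to TGANTCA, the AP-1 motif, searched on both strands. The Plaur stretch is chr7:24462233-24462482 (plus strand) and the Htra1 stretch is chr7:130935953-130936110 (plus strand).
Plaur: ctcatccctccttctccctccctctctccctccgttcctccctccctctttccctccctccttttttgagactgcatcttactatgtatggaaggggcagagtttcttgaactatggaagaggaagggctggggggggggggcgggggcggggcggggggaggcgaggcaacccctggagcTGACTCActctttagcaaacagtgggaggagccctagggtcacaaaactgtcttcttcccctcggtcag
Htra1: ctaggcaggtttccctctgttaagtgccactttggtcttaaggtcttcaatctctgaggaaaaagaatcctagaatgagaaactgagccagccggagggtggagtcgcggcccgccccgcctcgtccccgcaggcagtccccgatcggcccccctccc
The Plaur window held 1 match, TGACTCA, from base -69 to base -63 counted from the RefSeq start. The full windows of Htra1, Serpine2 and Serpinf1 held 0 matches, and 6.7% of all 32851 windows of this length in the table held at least 1. GGGCGG, the GC box, searched in the same way, matched 3 times in the window of Plaur, 6 times in that of Serpine2, 1 time in that of Htra1 and 0 times in that of Serpinf1. Matches of this motif can overlap each other, and 32.7% of all windows held at least 1. The Serpine2 window lies wholly inside the GENCODE gene model of Serpine2, and the Serpinf1 window overlaps the start of the Serpinf1 model. Matches in the Serpine2 window are therefore upstream of the RefSeq start but not of the GENCODE model. A match describes the letters of the window and is not evidence of a bound site.

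Among the inhibitors, Serpine2, protease nexin, inhibits thrombin, urokinase and plasmin and is held on the cell surface by heparan sulfate. It lies on chromosome 1, 79794197 to 79861180, minus strand (ENSMUSG00000026249.10). Its values were 144, 164 and 205 CPM across mutant libraries 1 to 3, against 176, 168 and 253 CPM across wild-type libraries 1 to 3. The groups overlapped, and the libraries numbered 3 were the highest of each genotype. Within pairs the differences were -0.29, -0.02 and -0.35 on the log2 scale. Without the block the log2 fold change was -0.23 with all libraries and -0.019 ± 0.16 (SE) without wild-type library 3. The fit with the block gave -0.22 ± 0.07 (SE, n = 3 pairs; edgeR, adjusted p 0.180).

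Serpinf1, pigment epithelium-derived factor, has the serpin fold but does not inhibit proteases and is known as an inhibitor of blood vessel growth. It lies on chromosome 11, 75409769 to 75422701, minus strand (ENSMUSG00000000753.15). It was the most abundant of the 7 in CPM, at 1700, 1756 and 1658 CPM across mutant libraries 1 to 3, against 1617, 1837 and 1672 CPM across wild-type libraries 1 to 3. Its log2 fold change with the block was -0.01 ± 0.05 (SE, n = 3 pairs; edgeR, adjusted p 0.914), so that the difference was smaller than its error. Its highest and lowest libraries were 0.23 apart on the log2 scale, against a median of 0.52 over all tested genes.

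Htra1, a secreted trimeric serine protease that cleaves fibronectin and small proteoglycans, lies on chromosome 7, 130936111 to 130985660, plus strand (ENSMUSG00000006205.13). It stood at 243, 250 and 200 CPM across mutant libraries 1 to 3, against 272, 301 and 339 CPM across wild-type libraries 1 to 3. The groups did not overlap, and the pair numbered 3 held both the lowest Sharpin-cpdm and the highest wild-type value. Within pairs the differences were -0.17, -0.25 and -0.80 on the log2 scale. On the log2 scale the fold change came to -0.40 ± 0.14 (SE, n = 3 per group) at an adjusted p of 1 in the unblocked edgeR fit, and with the block it came to -0.41 ± 0.12 at an adjusted p of 0.159. Without pair 3 it was -0.21 with an adjusted p of 0.253, and without pair 1 it was -0.53 with an adjusted p of 0.0357, both in the blocked edgeR fit.

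Fap, fibroblast activation protein, is a membrane-bound prolyl peptidase that cleaves denatured collagen and the plasmin inhibitor antiplasmin. It lies on chromosome 2, 62500943 to 62574075, minus strand (ENSMUSG00000000392.17). It stood at 83.9, 78.5 and 69.8 CPM across mutant libraries 1 to 3, against 108, 95.4 and 90.6 CPM across wild-type libraries 1 to 3. Every Sharpin-cpdm library was below every wild-type library, and the differences within pairs were alike, at -0.36, -0.27 and -0.42 on the log2 scale. Means were 77.4 ± 7.12 CPM for the mutant and 97.8 ± 8.73 CPM for wild type (SD, n = 3 per group). On the log2 scale the fold change came to -0.35 ± 0.11 (SE; unblocked edgeR fit, adjusted p 1), and with the block it came to -0.35 ± 0.05 at an adjusted p of 0.0259. The call was lost without pair 2, at an adjusted p of 0.0719, and without pair 3, at an adjusted p of 0.140, while the log2 fold changes there were -0.39 and -0.32. The genotype took 71.2% of the sum of squares of log2 CPM of Fap and the replicate number 26.4%.

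**Figure D2:**
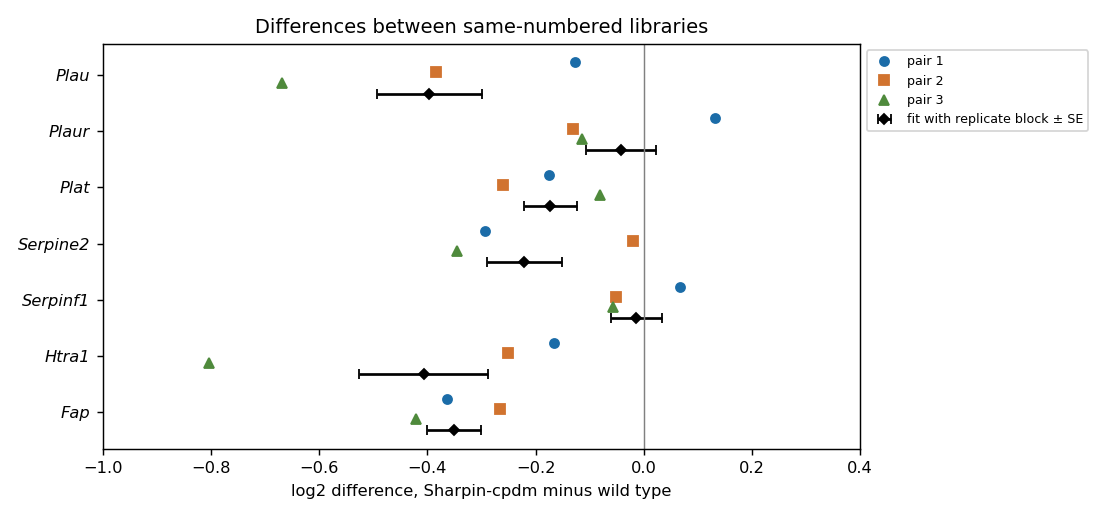
Log2 difference of Sharpin-cpdm minus wild type within each same-numbered pair of libraries (coloured symbols) and the log2 fold change ± SE of the fit with the replicate block (black diamonds). The 3 pairs of Fap lie between -0.42 and -0.27, while those of Htra1 spread from -0.80 to -0.17.

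Over the 7 genes, 3 were lower in Sharpin-cpdm with groups that did not overlap (Plau, Htra1 and Fap), where 2.59% of all tested genes were. In all 3 pairs 5 were lower (Plau, Plat, Serpine2, Htra1 and Fap), where 20.3% of all tested genes were. The median log2 fold change of the 7 with the block was -0.22, beside -0.00168 over all tested genes. The replicate number took most of the sum of squares of Plaur, Serpinf1 (88.2%) and Serpine2 (74.3%), and the genotype most of that of Fap, Plau (63.7%), Htra1 (62.8%) and Plat (57.7%).

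**Figure D3:**
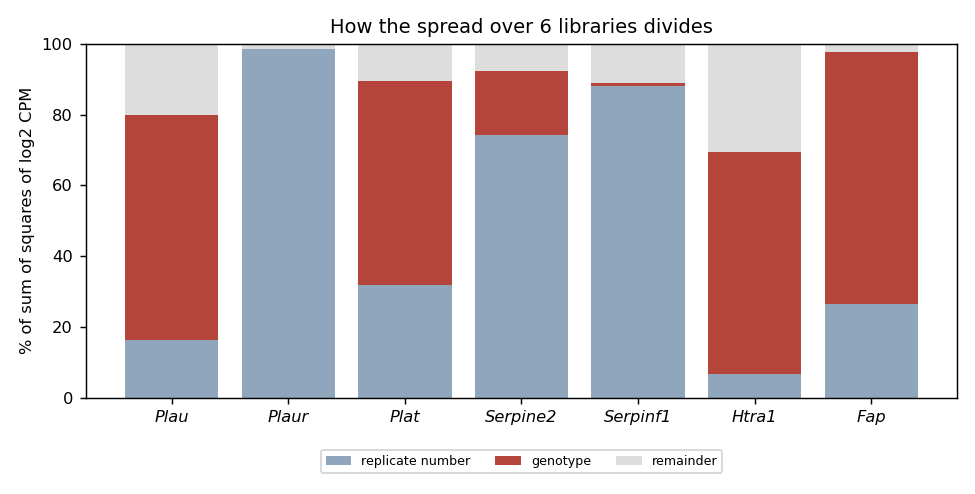
Share of the sum of squares of log2 CPM over the 6 libraries that goes with the replicate number, with the genotype and with neither, for each of the 7 genes. The replicate number holds 98.5% for Plaur, and the genotype 71.2% for Fap. Shares are not adjusted for the replicate number having more levels than the genotype.

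The pattern of each gene over the 6 libraries was compared with 10379 other tested genes of at least 5 CPM, by the root mean square (RMS) difference of mean-centred log2 CPM. The nearest to Plau were Adamts9 (0.06) and Parvb (0.06), and the nearest to Htra1 were Tnfrsf21 (0.06) and Per2 (0.06). Fap was nearest to Srpx (0.07) and Soat2 (0.07), and Plat to Nav3 (0.04) and Cd276 (0.04). Plaur was nearest to Ntn4 (0.07) and Endod1 (0.08), both of which were highest in the libraries numbered 2. Serpine2 was nearest to Zfp189 (0.05) and Nbl1 (0.06), and Serpinf1 to Drg1 (0.01) and Cdkl3 (0.01). The RMS difference depends on how much a gene varies, and the log2 range of Serpinf1 was only 0.23. With 10379 candidates and 6 libraries some near match is likely for any gene, and shared regulation was not tested. Among the 7 themselves the closest were Plat with Fap, at an RMS difference of 0.12, and Plau with Htra1, at 0.14, and the farthest were Plaur with Serpine2, at 0.65.

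Per kilobase of annotated exon, Serpinf1 was the highest of the 7 in every library, at 686 to 779 CPM per kb. Htra1 followed at 69.4 to 118, Plau at 52.4 to 86.7 and Plat at 33.3 to 43.2 CPM per kb. Htra1 was above Plau in every library, although the ranges over all libraries overlapped. Plaur (18.3 to 41.9), Serpine2 (17.4 to 30.6) and Fap (12.3 to 19.0 CPM per kb) overlapped with their neighbours in this order, and Plaur reached the level of Plat in the libraries numbered 2. Lengths were those of the GENCODE models, and the authors' own gene models may differ from them.

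**Figure D4:**
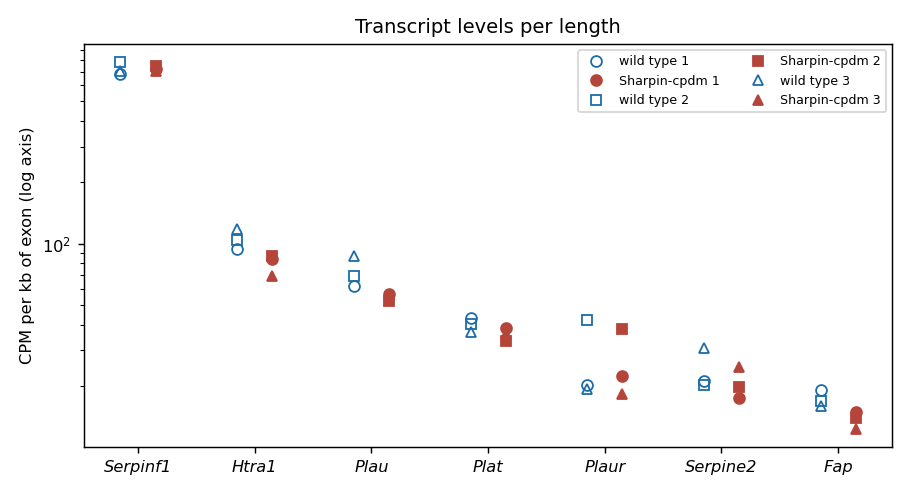
CPM per kb of annotated exon, on a log axis, for each library (open blue symbols wild type, filled red symbols Sharpin-cpdm, shape by replicate number). Serpinf1 stands at 686 to 779 over the libraries, and both libraries numbered 2 are on top for Plaur.

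Other genes listed for the plasminogen system did not pass. Of the 15 that had a row, 9 were tested and 0 were called with or without the block in edgeR's test (3 and 0 at an unadjusted p under 0.05, beside 17.3% and 2.28% of all tested genes), and the median log2 fold change with the block was -0.03. There were 2.31, 1.25 and 2.78 Plau counts per Plaur count across mutant libraries 1 to 3 and 2.76, 1.49 and 4.08 across wild-type libraries 1 to 3. That ratio was lower in Sharpin-cpdm in each pair, while its range over the 3 libraries of a genotype was wider than the difference in any pair.

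Serpinb2, a plasminogen activator inhibitor, was at or below 12.6 CPM in every library, with a log2 fold change of -0.60 ± 0.21 and an adjusted p of 0.220 in the blocked edgeR fit. Annotated exons of Serpinb10 overlap those of Serpinb2 on the same strand, which makes its count less certain. Anxa2 and S100a10, which form a plasminogen-binding complex at the cell surface, had log2 fold changes with the block of 0.13 ± 0.04 and 0.08 ± 0.06. The plasminogen receptor Plgrkt, under its older symbol 5033414D02Rik, had 0.01 ± 0.08. The clearance receptors Lrp1 and Vldlr had -0.03 ± 0.05 and -0.04 ± 0.08, and Mrc2, the collagen receptor that associates with Plaur, had -0.03 ± 0.05. Plg, plasminogen itself, was not tested: it had 0 counts in each Sharpin-cpdm library and 1, 3 and 0 counts across wild-type libraries 1 to 3. In these libraries 3 counts come to between 0.192 and 0.221 CPM.

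**Figure D5:**
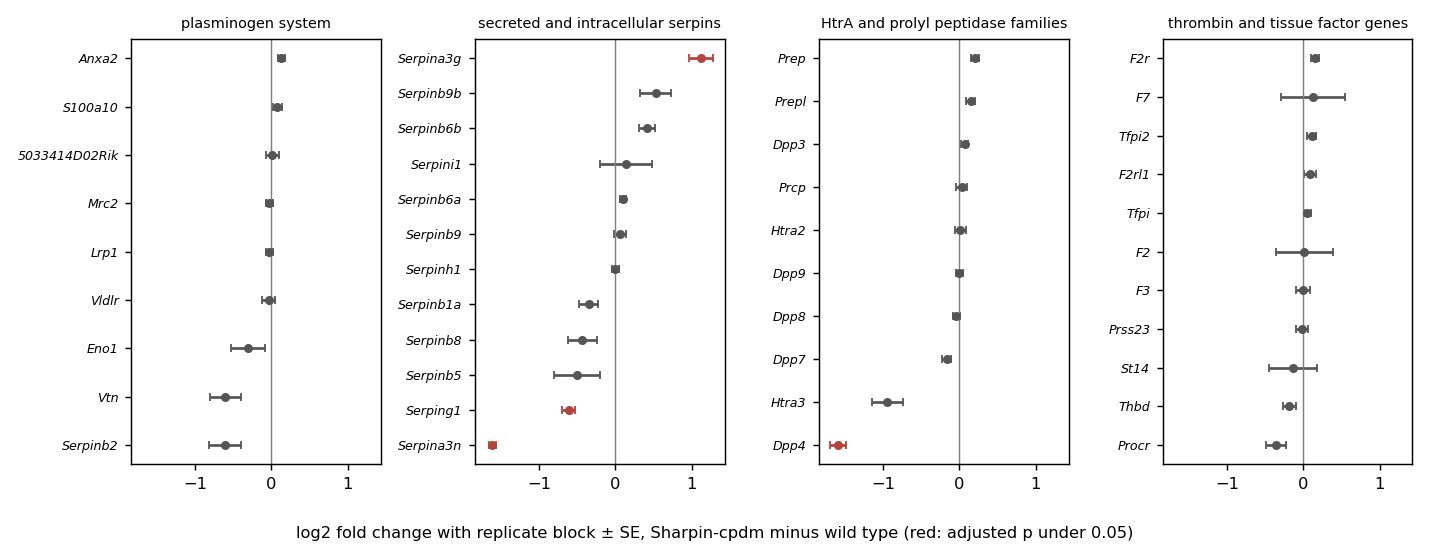
Log2 fold change ± SE with the replicate block for the tested genes of 4 lists (plasminogen system, other serpins, HtrA and prolyl peptidase families, thrombin and tissue factor genes); red marks an adjusted p under 0.05. No gene of the plasminogen system or of the thrombin and tissue factor list is red, and Serpina3n and Dpp4 lie farthest to the left.

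Of 12 other serpins tested, 2 fell (Serpina3n and Serping1) and 1 rose (Serpina3g) with the block, where 2.51% of all tested genes were called. Without the block 0 of the 12 were called. With and without it, 7 and 0 were at an unadjusted p under 0.05 in edgeR's test, beside 17.3% and 2.28% of all tested genes. Serpina3n, an acute-phase antichymotrypsin, stood at 29.8, 29.4 and 187 CPM across mutant libraries 1 to 3, against 93.6, 90.8 and 546 CPM across wild-type libraries 1 to 3. Its log2 fold change was -1.61 ± 0.05 (blocked edgeR fit, adjusted p 1.83e-04), and the differences within the pairs were -1.65, -1.61 and -1.59. Both libraries numbered 3 were far above the others of their genotype, so that the groups overlapped while every pair showed a like difference. Serping1, the C1 inhibitor, changed by -0.61 ± 0.08. Serpina3g, of the same gene cluster as Serpina3n, rose by 1.12 ± 0.16 (blocked edgeR fit, adjusted p 0.0244). The calls of Serping1 and Serpina3g were lost without pair 2, at adjusted p of 0.0850 and 0.0655, and without pair 3, at 0.0794 and 0.0522, in the blocked edgeR fit. Similar genes lie in the Serpina3 cluster, which makes the counts of Serpina3n and Serpina3g less certain.

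Of 10 tested genes of the HtrA and prolyl peptidase families 1 fell with the block, Dpp4, the closest relative of Fap, and 0 rose. With and without the block, 5 and 1 were at an unadjusted p under 0.05 in edgeR's test, beside 17.3% and 2.28% of all tested genes. Dpp4 changed by -1.59 ± 0.10 and Fap by -0.35 ± 0.05 on the log2 scale. The other relatives of Fap, Dpp8 and Dpp9, had log2 fold changes of -0.04 ± 0.04 and -0.00269 ± 0.04 and were not called. Htra3, a paralogue of Htra1, had -0.94 ± 0.20 (blocked edgeR fit, adjusted p 0.0774) and was highest in wild-type library 3, at 188 CPM. These 3 were named after their values were seen. Of 11 tested thrombin and tissue factor genes 0 were called with or without the block in edgeR's test, with 2 and 0 at an unadjusted p under 0.05, where 17.3% and 2.28% of all tested genes were.

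Markers of other cells were measured in the same libraries, since Plau and Plat are also made by endothelial cells and Plaur by macrophages. In bulk cultures, fewer cells of a type and less RNA per cell cannot be told apart. With the block 2.11% of all tested genes fell, and edgeR's test without the block called 0 markers of any cell type. In that test 12 of 19 endothelial markers were at an unadjusted p under 0.05, beside 2.28% of all tested genes. With the block 18 were, beside 17.3%. Without the block 1 of 9 pericyte, 0 of 12 fibroblast, 0 of 12 macrophage and leukocyte, 0 of 11 epithelial and 1 of 2 adipocyte markers were. Of 19 endothelial markers 15 fell with the block and 0 rose, and their summed level was 615 to 903 CPM for the mutant and 809 to 1440 CPM for wild type, above 0 in every library. The summed level of 14 macrophage and leukocyte markers ranged from 155 to 419 CPM in Sharpin-cpdm and from 84.4 to 494 CPM in wild type, was highest in both libraries numbered 2, and 0 of 12 tested were called. S100a9, a neutrophil marker, had at most 0.192 CPM in any library. Of 9 tested pericyte markers 3 fell and of 12 fibroblast markers 3 fell (Dcn, Lum and Fbln1), with summed levels of 1844 to 2117 and 83650 to 98030 CPM in Sharpin-cpdm and 1994 to 2464 and 83040 to 103300 CPM in wild type. The fibroblast markers went both ways, and 7 of the 12 had a log2 fold change below 0 with the block. Among those above 0, Fn1, Postn and Vim had log2 fold changes with the block of 0.32 ± 0.07, 0.25 ± 0.05 and 0.13 ± 0.04. They were not called. The 12 epithelial markers summed to 236 to 529 CPM for the mutant and 363 to 658 CPM for wild type, and 0 of 11 tested were called. Of 2 tested adipocyte markers Fabp4, which endothelial cells also express, fell, and Lep had 0 counts in every library. The part of these cells in the differences of Fap, Plau, Htra1 and Plat, and in the pattern of Plaur over the libraries, was not tested.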

How the data were processed

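Each library has a table of raw read counts by gene symbol that the authors deposited, ending in 5 summary rows. The submitters' processing notes name bcl2fastq (1.8.4), TopHat2 (2.0.10), HTSeq (0.5.4p3) and the mm10 build; what each did, which gene models served and how strand was set is not given in the sources used here. Per the labels' protocols the kit was TruSeq RNA v2, which does not mark strand. The summary rows, which held 48.8% to 51.2% of a table's summed counts, stayed out of library sizes and tests. Most of their counts were alignments that were not unique, so genes with near-identical copies lose reads.

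The software was edgeR 4.0.16 in R 4.3.3 (filterByExpr by group, TMM factors 0.969 to 1.03, quasi-likelihood F-test, two-sided), limma 3.58.1 and DESeq2 1.42.0; standard errors come from the fold change and the square root of F. CPM uses total gene counts without TMM; differences within pairs, sums of squares and likeness use TMM-scaled log2 CPM with a prior count of 2. No library pair of a group agreed within sampling noise (chi-square per degree of freedom 16.9 to 85.2). Deviations from the group means correlated across genes at 0.457, 0.809 and 0.737 for the same-numbered libraries 1 to 3 and at -0.691 to 0.00676 otherwise. Deviations cancel within a group, so positive same-numbered values push the others down, and the second range is not separate support for pairing. Every same-numbered value is over 0.1, which by the rule used here makes same-numbered libraries pairs. This comes from the data, not the labels, and the replicates are separate pools of animals.

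Named genes were the 7 members, Sharpin, called genes of 4 related lists, plasminogen system genes of at least 5 CPM and the 2 nearest genes of each member. Members and lists were chosen with earlier results of these data known, so counts over them are not independent evidence. 1 item of the plasminogen system list is not reported here. Alternatives covered the block, DESeq2, limma-voom, scaling, the low-count filter, GC content and length (known for 98.9% of tested genes) and leaving out libraries or pairs.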

Additional observations from a re-analysis of the deposited data

How the results depend on the processing

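In edgeR's test without the block 0 genes were called under both other scalings, without the low-count filter and without each single library, and limma-voom without the block also called 0; DESeq2 without it called 10. With the replicate block the number of genes was 337 in edgeR, 341 in DESeq2, 379 in limma-voom, 336 with DESeq2's size factors, 365 with library size alone, 502 (116 higher, 386 lower) without the low-count filter and 422 (142 higher, 280 lower) with GC content and length offsets; without pairs 1, 2 and 3 it was 673, 128 and 44. Of the 7 members, 2 (Fap and Plau) were called by DESeq2 with the block and 1 (Fap) in each other fit with the block and all 3 pairs; with the block, 3 (Fap, Plau and Htra1) were called without pair 1 and 0 without pair 2 or pair 3, and without the block 0 were called without any single library. Sharpin had log2 fold changes of -1.49 in edgeR without the block (not called there or in limma-voom without the block) and -1.48 with it (adjusted p 0.00595 in edgeR's test), -1.48 in DESeq2 with and without the block (called in both, at an adjusted p of 1.31e-12 without it), -1.49 in limma-voom with the block, and -1.48, -1.47, -1.48 and -1.43 with the block under DESeq2's size factors, library size alone, no low-count filter and the GC content and length offsets; without pairs 1, 2 and 3 it had -1.61, -1.50 and -1.34, and without single libraries and without the block -1.56 to -1.37 (not called).

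Plau, Plat, Serpine2, Htra1 and Fap kept a log2 fold change below 0 in all 21 alternatives; without single libraries and without the block they ranged from -0.52 to -0.26, -0.23 to -0.13, -0.36 to -0.019, -0.49 to -0.29 and -0.40 to -0.26, the value nearest 0 for Serpine2 being that without wild-type library 3. Plaur and Serpinf1 changed sign, in 4 and 5 of them. Without 1 library Plaur ranged from -0.46 to 0.42 and Serpinf1 from -0.063 to 0.055. With GC content and length offsets Serpinf1 had 0.028, Lrp1 0.045 and Mrc2 0.040. The median over all genes of that fit was 0.033, beside -0.00168 with the block alone. With the block, the sign changed for Plaur (0.010), Serpinf1 (0.0059), Mrc2 (0.0084) and 5033414D02Rik (-0.028) without pair 2, for Serpinf1 (0.0058) and Vldlr (0.069) without pair 3, and for 5033414D02Rik (-0.031) without pair 1. Without 1 library the ranges that crossed 0 were -0.057 to 0.066 for 5033414D02Rik, -0.11 to 0.36 for Anxa2, -0.033 to 0.21 for S100a10, -0.16 to 0.075 for Lrp1, -0.12 to 0.099 for Vldlr, -0.097 to 0.074 for Mrc2 and -0.99 to 0.016 for Serpinb2. The cause of these changes was not tested.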
